A study of Homo sapiens with 171 samples.

Results

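DOV13B is an established ovarian cancer cell line that the study exposed to cisplatin for 48 h or left untreated. It contributed 6 of the 171 arrays, all in batch 3: 3 cultures given cisplatin and 3 untreated cultures. The series holds 46 ovarian cancer lines, each with and without the drug. Per the labels' protocols, cells grew overnight in multiwell plates and then received cisplatin at the GI50 concentration of their line, so the dose differed between lines, and the dose for DOV13B is not given in the sources used here. The labels name no genotype and no other agent. They also do not say how DOV13B is related to the lines DOV13 (3 cisplatin and 3 untreated cultures on 8 arrays, batch 2) and DOV13A (1 culture per arm, batch 5). The labels number the cultures without stating that each was grown on its own. The p-values rest on the spread between numbered cultures, pooled per gene over 107 cultures of 18 lines, and that spread may be technical. Because whole cultures were measured, fewer cells of a type and less RNA per cell cannot be told apart.

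Cisplatin is a platinum compound that forms adducts and crosslinks between bases of DNA, and the lesions block replication and transcription. In cells with working p53, the damage stabilises this transcription factor, which switches on genes for cell cycle arrest, repair and death, among them CDKN1A, whose product p21 inhibits cyclin-dependent kinases. Genes for mitosis are transcribed mainly in the G2 and M phases; many carry CCAAT boxes and a cell cycle genes homology region (CHR) near their start, which are bound by NF-Y and by the DREAM and FOXM1 complexes, and the p53 and p21 pathway is known to repress them.

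Expression was measured on Affymetrix arrays as log2 RMA values, summarised to 18417 genes. A change is the mean log2 value of cisplatin cultures minus that of untreated cultures, so that 1 is a doubling, and it is given with its standard error from limma. The fit shared 1 estimate of the spread per gene over 107 cultures of the 18 lines with replicates in batches 1 to 3, and a gene was called at an adjusted p under 0.05. DOV13B cultures of the same arm correlated at 0.992 to 0.995 over all genes and cultures of different arms at 0.990 to 0.993. The median standard deviation per gene within an arm was 0.141 in DOV13B, the 6th lowest of the 18 lines, and 0.177 when pooled over the 18 lines.

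The labelled cell type was set against markers in untreated cultures, by rank among the 18 lines. Of the epithelial markers, the keratins KRT7 and KRT19 both ranked 4th at 12.16, whereas the cadherin CDH1 ranked 13th at 4.89, where lines ran from 4.56 to 11.01. The mesenchymal markers CDH2 at 11.72 and SPARC at 11.93 were the highest of all 18 lines. Of the ovarian carcinoma markers, MSLN ranked 2nd at 8.63 and PAX8 9th at 7.79, but WT1 ranked 17th and MUC16 15th. The leukocyte marker PTPRC lay at 2.92, near the 2.89 of the median line, and the fibroblast collagen COL3A1 at 5.49 was the lowest of the lines. The fibroblast and mural cell receptor PDGFRB ranked 4th at 6.13, above the median line, and DCN 7th at 2.91, and the epithelial claudin CLDN4 at 4.87 was the lowest of the 18 lines. The endothelial cadherin CDH5 ranked 4th at 10.16, whereas PECAM1 at 4.19 ranked 17th and VWF at 4.54 was the lowest. With cisplatin, CDH1 changed by -0.23, the mesenchymal marker VIM by 0.06 and PAX8 by 0.09, and none was called. In DOV13B, 0 of 21 epithelial, 26 mesenchymal, 10 ovarian carcinoma, 15 leukocyte, 11 endothelial and 11 fibroblast or mesothelial markers were called by limma; 2, 2, 1, 5, 1 and 1 of them had an unadjusted p under 0.05, as did 11.9% of all genes.

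Few genes were called in DOV13B, and those called higher included 30 of 35 genes for mitosis and 13 of 35 p53 targets. Both lists were chosen with earlier results of these data known, so such counts are descriptions. A gene that was not called is not shown to be unchanged. The test called 268 of 18417 genes (1.46%), of which 190 were higher (1.03%) and 78 lower (0.424%) in cisplatin cultures. Of the other lines only TYK-nu, where 10 genes rose and 4 fell, had fewer called genes, and the other 17 lines had a median of 944. Changes were small: the median size among the called genes was 0.56, and 10 rises and 9 falls exceeded 1. In 263 of the 268 called genes the 3 cisplatin and the 3 untreated cultures did not overlap, against 20.4% of all genes. The call itself picks genes whose arms differ, so this separation is largely built in and adds no support to the calls. With the arrays centred on their medians, 143 genes were higher and 116 lower, so that 55.2% of called genes were higher against 70.9% in the values as deposited; the median level of an array was 6.66 to 6.68 in cisplatin cultures and 6.62 to 6.65 in untreated cultures. The number called was 110 in a fit of the 6 DOV13B cultures alone, 138 without cisplatin culture 3 and 176 without untreated culture 1. It was 367 after quantile normalization, 380 without OVCA420 treated culture 3 and OVCAR-10 treated culture 1, and 629 with array weights. Before adjustment, 2187 genes had a limma p under 0.05. A permutation test of 3 against 3 cultures cannot give a two-sided exact p below 0.1, so single genes were tested only with limma.

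Of 35 genes for mitosis, 30 rose and 0 fell, against 1.03% and 0.424% of all genes. Because the list was chosen with earlier results of these data known, this contrast is not an independent result. The median change of the 35 genes was 0.48 (range 0.11 to 0.76), beside 0.0054 for all genes. All 35 were higher in every cisplatin culture than in any untreated culture, which held for 10.2% of all genes. The count was 22 to 25 when 1 culture was left out, 23 with arrays centred on their medians and 7 from the 6 DOV13B cultures alone. The median change of the list in these fits ran from 0.45, with centred arrays, to 0.51, without cisplatin culture 1.

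The largest rise in this list was that of HMMR, which encodes a spindle-associated hyaluronan receptor. HMMR lay at 9.98, 9.98 and 10.05 in cisplatin cultures and at 9.27, 9.23 and 9.23 in untreated cultures. The arms were well apart, and the change was 0.76 ± 0.12 (limma adjusted p = 1.94e-05, 1.69-fold). CENPF, a kinetochore protein, lay at 10.37, 10.48 and 10.49 in cisplatin cultures and at 9.75, 9.63 and 9.76 in untreated cultures. Its cultures did not overlap either, with a change of 0.73 ± 0.08 (adjusted p = 1.12e-10). TOP2A, the topoisomerase that untangles sister chromatids, had values of 10.82, 10.83 and 10.90 in cisplatin cultures and 10.26, 10.04 and 10.13 in untreated cultures. This was a rise of 0.71 ± 0.08 (adjusted p = 1.12e-10).

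Several kinases and cyclins that drive mitotic entry rose as well. PLK1, the polo-like kinase that acts from mitotic entry to exit, lay at 10.11, 10.23 and 10.52 in cisplatin cultures and at 9.62, 9.56 and 9.68 in untreated cultures. The lowest cisplatin culture was above the highest untreated one, and the rise was 0.66 ± 0.10 (adjusted p = 1.95e-06). CCNB1, the cyclin partner of CDK1, lay at 12.19, 12.16 and 12.11 in cisplatin cultures and at 11.79, 11.68 and 11.73 in untreated cultures, a rise of 0.42 ± 0.08 (adjusted p = 0.000247). The phosphatase CDC25C, which activates CDK1, rose by 0.65 and the cyclin CCNB2 by 0.56. The Aurora kinases AURKA and AURKB rose by 0.51 and 0.55, and FOXM1, a transcription factor of the G2 and M phases, by 0.48.

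Genes for exit from mitosis and for the spindle checkpoint also rose. UBE2C, the ubiquitin-conjugating enzyme of the anaphase-promoting complex, lay at 8.95, 8.96 and 8.87 in cisplatin cultures and at 8.23, 8.22 and 8.24 in untreated cultures. The arms did not overlap, and the rise was 0.69 ± 0.07 (adjusted p = 5.26e-11). PTTG1, the securin that holds back chromatid separation, rose by 0.58 and CDC20, an activator of the anaphase-promoting complex, by 0.48. The checkpoint kinases BUB1, BUB1B and TTK rose by 0.44, 0.50 and 0.45. Among motor proteins, KIF2C rose by 0.65, KIF4A by 0.52, KIF20A by 0.49, KIF11 by 0.46 and KIF23 by 0.34. BIRC5, whose product survivin sits in the chromosomal passenger complex, rose by 0.40; its second probe set changed by 0.37.

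The 5 mitotic genes that did not pass were CENPE at 0.48 (adjusted p = 0.107), NDC80 at 0.36 (0.0996), ECT2 at 0.32 (0.0567), MAD2L1 at 0.27 (0.312) and CDC25B at 0.11 (0.665). Of the 30 called genes, 21 stayed past the threshold whichever DOV13B culture was left out. CDC20 and KIF11 were lost only without cisplatin culture 3, at adjusted p of 0.0729 and 0.0595. The cyclin CCNA2, the spindle kinase TTK, the spindle protein DLGAP5 and the kinesin KIF23 were lost under each of the 6 omissions, with adjusted p of at least 0.065, 0.0719, 0.0517 and 0.0592 in that order. ANLN, an actin-binding protein of cytokinesis, was lost under all omissions but that of untreated culture 3 (adjusted p 0.0633 to 0.144). NUSAP1, a spindle protein, was lost under all but that of cisplatin culture 3 (0.0572 to 0.181), and CDK1 without any cisplatin culture or without untreated culture 2 (0.0508 to 0.089). Genes outside the list with known mitotic roles moved the same way, chosen after their values were seen: citron kinase CIT rose by 0.81 ± 0.09 (adjusted p = 1.05e-09), the centrosomal kinase NEK2 by 0.75 ± 0.08 (adjusted p = 4.13e-10) and the kinesin KIF14 by 0.64 ± 0.10 (adjusted p = 2.19e-05).

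**Figure D1:**
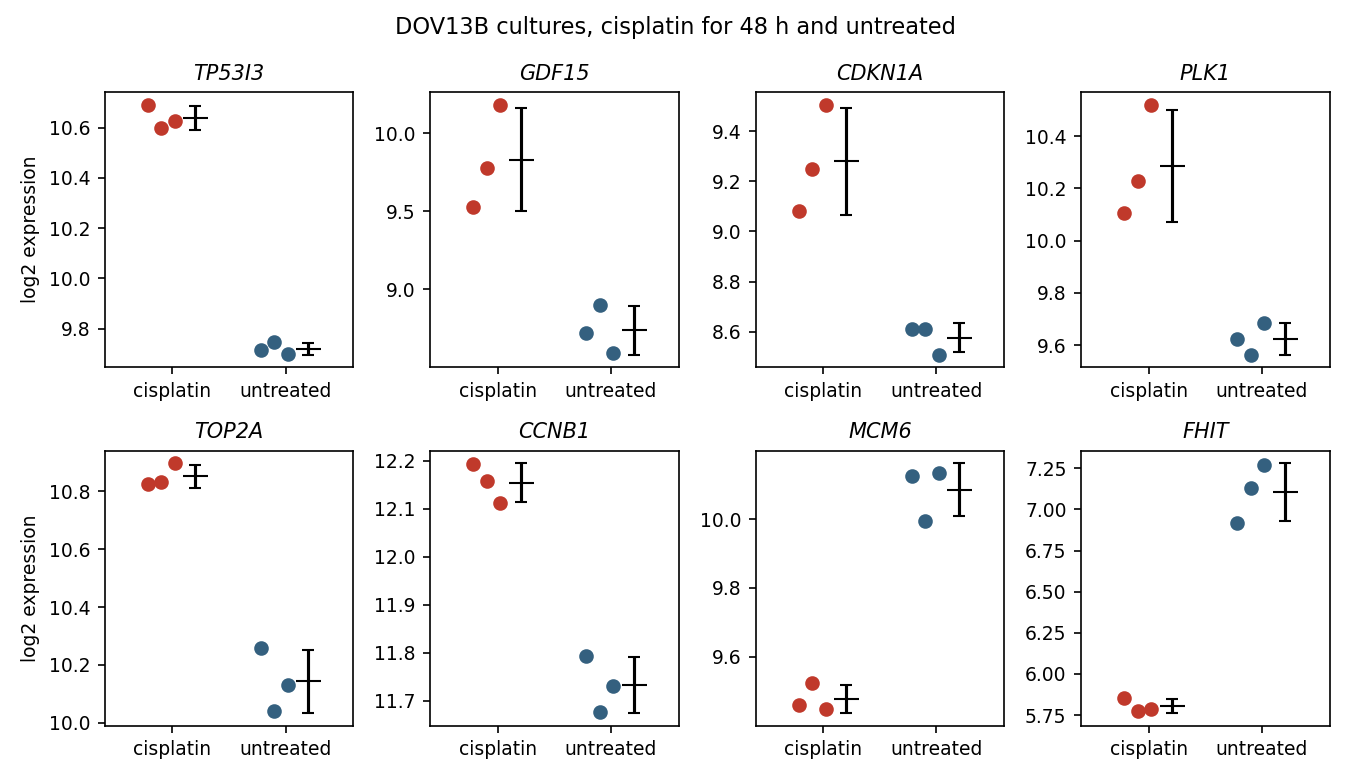
Log2 expression (vertical axis, a separate range for each gene) of 8 genes in the 3 cisplatin cultures (red, left) and the 3 untreated cultures (blue, right) of DOV13B; dashes with bars give the mean and SD of each arm. In none of the 8 genes do the arms overlap; TP53I3, GDF15, CDKN1A, PLK1, TOP2A and CCNB1 are higher and MCM6 and FHIT lower in cisplatin cultures.

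The promoters of the mitotic genes are shown as background to the list. Their letters are fixed by the choice of genes and do not depend on these cultures. Whether the letters relate to the rise was not tested. RefSeq windows of assembly GRCh38.p14, from 250 bases before to 50 bases after the gene start, were found for 29 of the 35 genes. Capitals mark the letters searched on both strands: TTTGAA or TTCGAA for the CHR, CCAAT for the NF-Y box, and TTTCCCGC, TTTCGCGC, TTTGCCGC or TTTGGCGC for E2F; matches may overlap. The 3 largest rises of the list that were given in full above, PLK1, and for contrast the replication gene MCM6, which fell, have these windows.
HMMR, chr5:163460382-163460681, plus strand: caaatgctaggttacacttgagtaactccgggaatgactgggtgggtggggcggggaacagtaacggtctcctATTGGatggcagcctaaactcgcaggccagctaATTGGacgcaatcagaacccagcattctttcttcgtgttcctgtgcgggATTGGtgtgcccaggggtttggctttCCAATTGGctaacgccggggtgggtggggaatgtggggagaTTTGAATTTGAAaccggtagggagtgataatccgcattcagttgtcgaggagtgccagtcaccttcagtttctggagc
CENPF, chr1:214602945-214603244, plus strand: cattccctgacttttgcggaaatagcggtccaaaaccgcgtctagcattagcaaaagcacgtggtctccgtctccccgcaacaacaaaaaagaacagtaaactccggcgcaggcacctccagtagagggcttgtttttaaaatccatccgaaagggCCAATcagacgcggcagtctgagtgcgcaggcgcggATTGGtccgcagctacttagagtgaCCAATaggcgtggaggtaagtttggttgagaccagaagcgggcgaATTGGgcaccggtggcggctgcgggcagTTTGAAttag
TOP2A, chr17:40417847-40418146, minus strand: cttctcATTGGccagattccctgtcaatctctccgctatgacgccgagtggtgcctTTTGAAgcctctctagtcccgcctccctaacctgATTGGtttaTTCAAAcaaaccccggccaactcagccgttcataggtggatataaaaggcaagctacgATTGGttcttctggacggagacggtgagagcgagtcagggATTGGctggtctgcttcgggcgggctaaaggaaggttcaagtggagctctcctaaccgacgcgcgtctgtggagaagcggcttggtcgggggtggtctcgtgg
PLK1, chr16:23678639-23678938, plus strand: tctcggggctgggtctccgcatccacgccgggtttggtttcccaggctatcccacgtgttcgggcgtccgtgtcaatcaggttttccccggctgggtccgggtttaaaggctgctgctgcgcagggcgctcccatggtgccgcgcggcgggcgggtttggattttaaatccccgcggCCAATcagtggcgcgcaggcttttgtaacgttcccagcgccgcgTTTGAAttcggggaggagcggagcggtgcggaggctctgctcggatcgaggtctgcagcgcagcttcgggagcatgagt
MCM6, chr2:135876394-135876693, minus strand: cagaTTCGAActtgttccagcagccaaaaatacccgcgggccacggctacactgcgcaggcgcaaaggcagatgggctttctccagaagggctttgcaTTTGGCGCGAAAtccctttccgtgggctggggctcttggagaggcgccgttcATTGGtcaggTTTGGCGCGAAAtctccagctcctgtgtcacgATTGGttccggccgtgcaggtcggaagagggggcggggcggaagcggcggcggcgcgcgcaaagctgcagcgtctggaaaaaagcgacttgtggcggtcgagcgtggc

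HMMR holds 2 CHR matches side by side and 5 CCAAT matches, TOP2A 2 and 4, CENPF 1 and 4, and PLK1 1 and 1. MCM6 holds 4 E2F, 2 CCAAT and 1 CHR matches, and the other windows shown hold 0 E2F matches. Over the list, 20 of 29 windows held the CHR letters (69.0%), against 16.4% of 34943 RefSeq windows of the same length. CCAAT stood in 21 of the 29 (72.4%), against 34.6% of all windows, and both stood in 16 (55.2%), against 6.40%. CCAAT was common in other lists too, in 16 of 27 windows of the DNA replication genes (59.3%) and 34 of 37 of the replication-dependent histones (91.9%). The E2F letters stood in 2 of the 29 (6.90%), against 3.30%. In the list of DNA replication genes the CHR letters stood in 1 of 27 windows (3.70%), that of MCM6, and the E2F letters in 14 (51.9%). A match describes letters in the window and not binding.

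Across the 18 lines, the median change of the mitotic list ran from -0.52 in A2780, where 28 members fell, to 0.48 in DOV13B. C13 followed DOV13B with a median of 0.39 and 24 members that rose, then DOV13 with 0.31 and 21. In HeyA8 the median was -0.48 and 31 members fell. In 9 lines the median was below 0. Over the mean of the other 17 lines, the median response of the list was -0.08. The response of DOV13B was higher than that mean for 31 of the 35 genes and lower for 0, against 1.09% and 0.972% of all genes in that comparison, and the median difference was 0.60. The count stayed between 26 and 29 when 1 DOV13B culture was left out. BUB1 (difference 0.65, limma adjusted p = 1.3e-10), CENPF (0.82, 1.3e-11) and UBE2C (0.69, 1.5e-10) were among these, and for each of them no other line had a higher response.

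**Figure D2:**
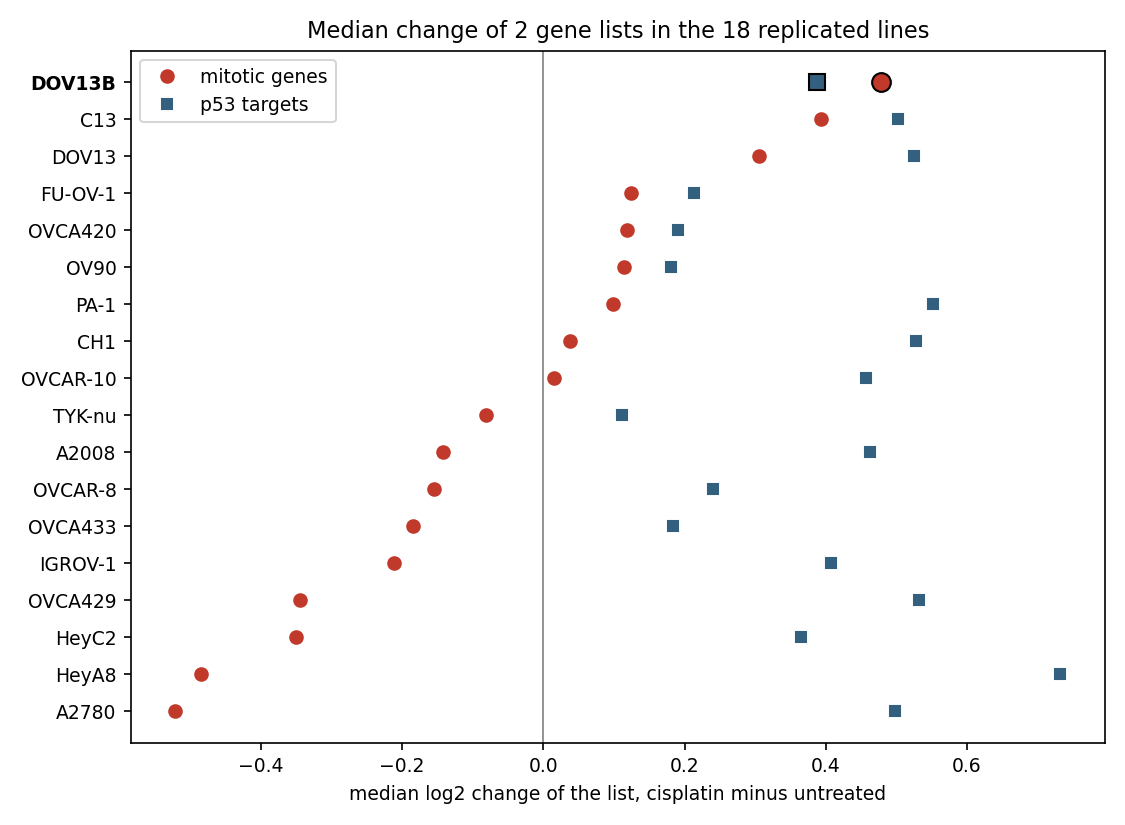
Median log2 change of the mitotic list (red circles) and of the p53 target list (blue squares) in each of the 18 lines, cisplatin minus untreated, ordered by the mitotic median with DOV13B on top. The mitotic medians run from 0.48 in DOV13B to -0.52 in A2780, whereas the p53 medians are above 0 in all 18 lines.

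Of 35 targets of p53, 13 rose and 0 fell, against 1.03% and 0.424% of all genes. Of the 35, 34 were above 0, and the median change was 0.39, beside 0.0054 for all genes. In 29 of the 35 the cisplatin cultures all lay above the untreated ones (10.2% of all genes). TP53I3, a quinone oxidoreductase, lay at 10.69, 10.60 and 10.63 in cisplatin cultures and at 9.71, 9.75 and 9.70 in untreated cultures. It did not overlap between arms, and its rise of 0.92 ± 0.08 had the smallest p of the list (adjusted p = 5.42e-14, 1.89-fold). GDF15, a secreted stress cytokine, lay at 9.53, 9.78 and 10.18 in cisplatin cultures and at 8.72, 8.90 and 8.59 in untreated cultures. The arms were again apart, and the rise was 1.09 ± 0.23 (adjusted p = 0.00193).

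CDKN1A, the gene of p21, lay at 9.08, 9.25 and 9.51 in cisplatin cultures and at 8.61, 8.61 and 8.51 in untreated cultures. Its rise was 0.70 ± 0.15 (adjusted p = 0.00164), and 10 of the other 17 lines had a larger one. SESN2, a stress-induced regulator of mTORC1 signalling, lay at 6.87, 6.85 and 7.05 in cisplatin cultures and at 5.91, 6.25 and 6.15 in untreated cultures. The rise of 0.82 ± 0.13 (adjusted p = 1.31e-05) exceeded that of every other replicated line.

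The remaining risers of the p53 list cover several functions. DDB2, a damage sensor of nucleotide excision repair, rose by 0.67 (adjusted p = 8.86e-05), and POLH, a polymerase that copies past platinum adducts, by 0.46 (0.000349). RRM2B, a subunit of ribonucleotide reductase, rose by 0.57 and PPM1D, a phosphatase that damps p53 signalling, by 0.57. The death receptor gene FAS rose by 0.61, the apoptosis-linked nuclease AEN by 0.59, the mitochondrial quality control gene SPATA18 by 0.70, the kinase PLK3 by 0.65 and the survival gene TRIAP1 by 0.48. MDM2, the ubiquitin ligase of p53, was at 0.36 (adjusted p = 0.144) and BAX, a mitochondrial death effector, at 0.35 (0.059); neither passed.

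The count of p53 calls dropped without cisplatin culture 3, as did the count over all genes, from 268 to 138. Without that culture 6 of the 13 p53 targets remained called. Of those lost, 4 were lost only there: AEN (limma adjusted p = 0.122), CDKN1A (0.0601), GDF15 (0.0649) and RRM2B (0.0733). FAS was also lost without untreated culture 1 (0.0783), SPATA18 without untreated cultures 1 (0.0561) and 2 (0.0831), and PLK3 without untreated cultures 2 (0.0653) and 3 (0.0509). The median change of the list without culture 3 was 0.36. Against the mean response of the other lines, SESN2 (0.69, adjusted p = 0.00038) and TP53I3 (0.46, 0.00012) were higher in DOV13B, and the other 33 targets did not pass.

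Few genes of S phase were called. Of 33 DNA replication genes 0 rose and 1 fell, against 1.03% and 0.424% of all genes, with a median change of 0.02. The faller was MCM6, a subunit of the replicative helicase, which lay at 9.46, 9.53 and 9.45 in cisplatin cultures and at 10.13, 9.996 and 10.13 in untreated cultures. The arms did not overlap, and MCM6 fell by 0.61 ± 0.08 (limma adjusted p = 7.1e-08). The helicase subunits MCM5 at -0.31 and MCM3 at -0.27 did not pass. Of 26 G1/S cyclins and E2F targets, E2F7, a repressor of the E2F family, rose by 0.54 (adjusted p = 0.0148), and the thymidylate synthase TYMS rose by 0.37 (0.0186). CCNE2, an S phase cyclin, fell by 0.49 (0.0216). E2F7 was lost without cisplatin cultures 1 and 3 and untreated cultures 1 and 2 (adjusted p up to 0.111). TYMS was lost without cisplatin cultures 1 and 2 and untreated cultures 1 and 2 (up to 0.142), and CCNE2 under all 6 omissions (up to 0.147).

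The replication-dependent histone genes, whose transcripts lack poly(A) tails and are made in S phase, were mostly lower without passing the test. Of 41 genes 2 fell and 0 rose, against 0.424% and 1.03% of all genes, and the median was -0.29. In 20 of the 41 all cisplatin cultures lay below the untreated ones, against 10.1% of all genes. The linker histone H1-1 lay at 5.82, 5.73 and 5.60 in cisplatin cultures and at 6.50, 6.20 and 6.52 in untreated cultures. It fell by 0.69 ± 0.15 (adjusted p = 0.00381) and was lost without cisplatin culture 3 (0.0556), where 0 of the 41 were called. Across the alternatives the count of 2 moved: 0 with a minimum change of 1.2-fold, 1 without cisplatin culture 2, untreated culture 1 or untreated culture 2, 4 with each array centred on its median, 5 without OVCA420 treated culture 3 and OVCAR-10 treated culture 1, and 9 with array weights. H3C12 fell by 0.66 (0.0475) and was lost under 5 of the 6 omissions, without any cisplatin culture and without untreated cultures 1 and 2 (up to 0.273). The list does not hold H4C2, a core histone gene chosen after its values were seen, which fell by 0.70 (limma adjusted p = 1.62e-05) and kept its call under all 6 omissions. Against the mean of the other lines, where the median of the list was -0.57, 7 histone genes were higher in DOV13B and 0 lower. H2BC14 showed the largest of these differences: its response was -0.53 in DOV13B and -1.36 over the other lines (difference 0.83, adjusted p = 0.0012). Histone genes share probe sequence with near-identical copies, so their separate values are uncertain.

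**Figure D3:**
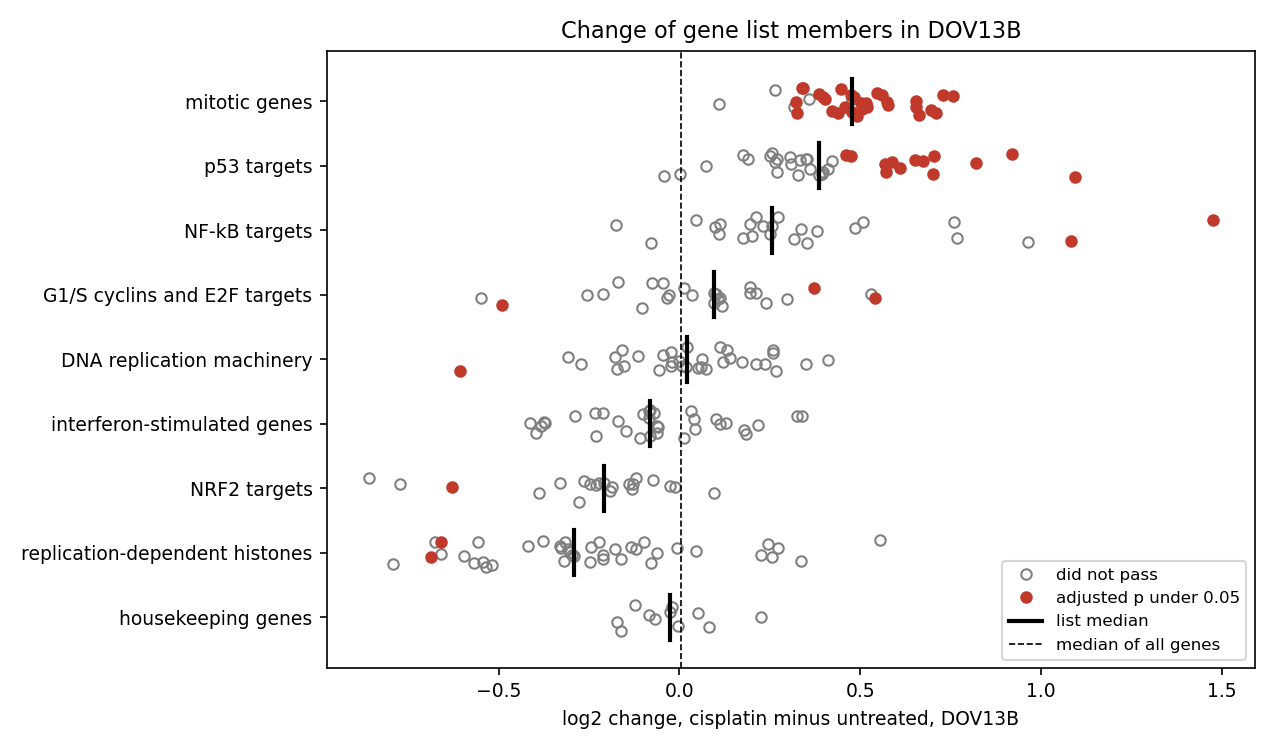
Log2 change in DOV13B (horizontal axis, cisplatin minus untreated) of each member of 9 gene lists; filled red points passed an adjusted p under 0.05, open grey points did not, the thick bar is the list median and the dashed line the median of all genes. The mitotic list lies wholly above 0 with a median of 0.48, the p53 list at 0.39, and the histone list at -0.29.

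Inflammatory cytokine genes were among the largest rises. IL1B, the secreted interleukin of early inflammation, lay at 8.89, 8.90 and 8.42 in cisplatin cultures and at 7.34, 7.22 and 7.23 in untreated cultures. IL1B rose by 1.47 ± 0.35 (adjusted p = 0.0106, 2.78-fold). IL6 lay at 7.60, 7.87 and 7.75 in cisplatin cultures and at 6.65, 6.44 and 6.88 in untreated cultures, a rise of 1.08 ± 0.30 (adjusted p = 0.0406). The neutrophil chemokine gene CXCL6 rose by 0.93 ± 0.19 (0.00142). Of 25 NF-kB targets these interleukins were the 2 called, where 1.03% of all genes rose. In this list 23 genes were above 0 and the median was 0.26, beside 0.0054 for all genes. CXCL8 at 0.97, IL1A at 0.77 and CXCL1 at 0.76 did not pass. IL1B was lost without cisplatin culture 1 (0.0638) or 2 (0.0662), IL6 under all 6 omissions (0.0561 to 0.16) and CXCL6 without cisplatin culture 1 (0.115). Of 22 immediate early genes, DUSP6, a phosphatase of ERK, rose by 0.55 (adjusted p = 0.0211) and FOS by 0.50 (0.00461). DUSP6 was lost without any cisplatin culture or untreated culture 2 (up to 0.177) and FOS without cisplatin culture 3 or untreated culture 1 (up to 0.095).

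The largest rise of all called genes was that of ABCA12, a lipid transporter best known from skin. ABCA12 lay at 7.45, 7.34 and 7.48 in cisplatin cultures and at 5.55, 5.42 and 5.48 in untreated cultures. The rise was 1.94 ± 0.25 (limma adjusted p = 5.03e-08, 3.84-fold), and it was 1.74 in DOV13 and 0.48 on average over the other 17 lines. LAMP3, a lysosomal membrane glycoprotein, lay at 7.82, 7.76 and 7.76 in cisplatin cultures and at 6.49, 6.63 and 6.32 in untreated cultures, a rise of 1.30 ± 0.17 (adjusted p = 1.81e-07). SMOC1, a secreted calcium-binding matrix protein, lay at 8.09, 8.12 and 8.07 in cisplatin cultures and at 7.10, 6.95 and 6.55 in untreated cultures. SMOC1 rose by 1.23 ± 0.18 (adjusted p = 9.22e-07). None of these 3 genes overlapped between the arms, but that was a condition of being named among the largest changes.

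Other rises were EFCAB10 at 1.34, EVI2B at 1.25, the monocarboxylate transporter SLC16A12 at 1.12, MYH16 at 1.12, PAG1, a membrane adaptor of SRC family kinases, at 1.00, the cytidine deaminase APOBEC3H at 0.95 and the noncoding RNA LINC03030 at 0.94. EFCAB10 lay at 4.39, 4.04 and 4.43 in cisplatin cultures and at 3.27, 2.72 and 2.86 in untreated cultures. The deposited values carry no detection call, so such a dim gene is not shown to be above background, and the size of its change is uncertain. ABCA12, EVI2B, SLC16A12, APOBEC3H, RRAD, NAALADL2, SLC9A9, ACTR3C, LOC284788, SCG3, GDPD1, HSD17B6, ZNF737, CER1 and SNORD113-3 are, like EFCAB10, among the dim genes that the filter on mean level over all cultures left out. The tetraspanin CD82 rose by 0.92, ETV4, a transcription factor of the ETS family, by 0.86, the potassium channel KCNJ2 by 0.86 and the small GTPase RRAD by 0.79. Of 17 genes for platinum transport and detoxification, SLC47A1, an exporter of organic cations, rose by 0.74 ± 0.16 (adjusted p = 0.00324). SLC47A1 was lost without cisplatin culture 3 (0.092), as was RRAD (0.0819); EVI2B was lost without cisplatin cultures 1 and 2 and untreated culture 2 (up to 0.108), SLC16A12 without untreated culture 1 (0.0673) and LINC03030 without cisplatin cultures 2 and 3 and untreated cultures 1 and 3 (up to 0.095). The copper transporter genes SLC31A1 at 0.04 and ATP7B at -0.17, the excision repair gene ERCC1 at -0.0036 and BRCA1 at 0.09 did not pass.

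The largest falls included several very long genes. FHIT, which spans a common fragile site over 1504176 bp, lay at 5.85, 5.77 and 5.78 in cisplatin cultures and at 6.92, 7.13 and 7.27 in untreated cultures. FHIT fell by 1.30 ± 0.17 (adjusted p = 1.11e-07), and no other replicated line had a lower response. NAALADL2 (1369567 bp) fell by 1.18, the microtubule protein MAP2 (310066 bp) by 1.11, the sodium-proton exchanger SLC9A9 (583247 bp) by 0.98 and WWOX (1113014 bp), also at a fragile site, by 0.38. Of 29 fragile site and other very long genes, FHIT and WWOX fell and 0 rose, against 0.424% and 1.03% of all genes. Their median was -0.15. WWOX was lost without cisplatin cultures 1 and 2 and untreated cultures 2 and 3 (adjusted p up to 0.0843).

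By genomic length, 16 of 729 genes of 300 kb or more fell (2.19%) and 4 rose (0.549%). Among 5243 genes under 10 kb, 12 fell (0.229%) and 44 rose (0.839%). The median length was 42954.5 bp for the 78 fallers and 27765 bp for the 190 risers, beside 24476.5 bp for all genes with a length. The median change of the longest class was -0.02 and that of the shortest 0.03.

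**Figure D4:**
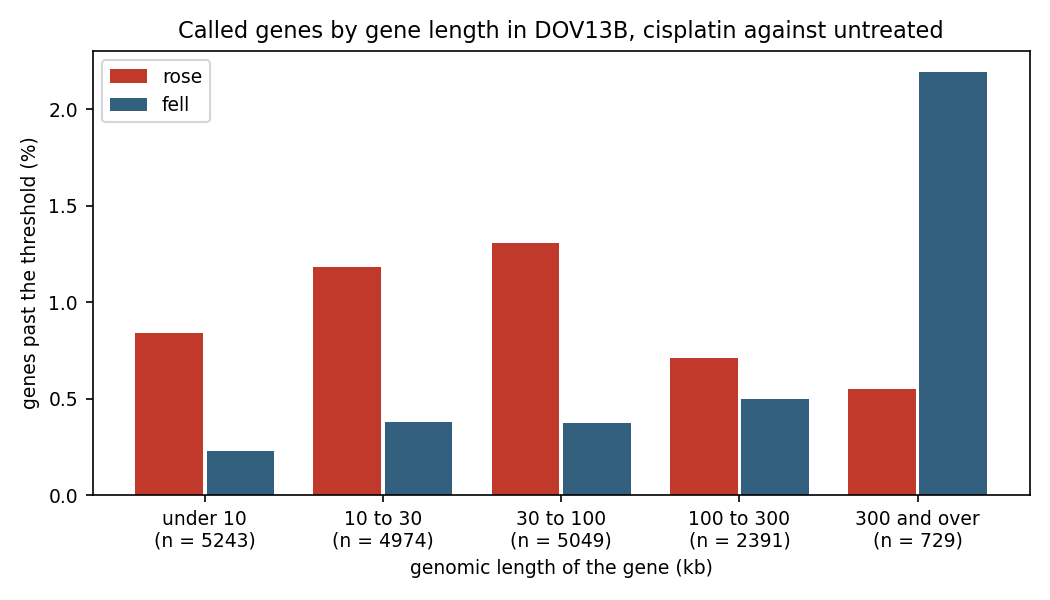
Percent of genes called higher (red, left) and lower (blue, right) in DOV13B cisplatin cultures, by class of genomic length in kb with the number of genes under each class; bars start at 0. The share of genes that fell is 0.229% under 10 kb and 2.19% at 300 kb and over.

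Other genes fell as well. SNORD116-21, a small nucleolar RNA of an imprinted cluster, lay at 4.60, 4.90 and 3.11 in cisplatin cultures and at 5.74, 5.67 and 5.67 in untreated cultures, a fall of 1.49 ± 0.30 (adjusted p = 0.000856). Cisplatin culture 3 was far below the others, and without it the fall was 0.94 (adjusted p = 0.16). The vitamin D hydroxylase CYP24A1 fell by 1.01, the growth factor PDGFD by 1.03, TPD52L1 by 1.05, ACTR3C, which spans 442186 bp, by 1.18, the uncharacterised LOC284788 by 1.13, the monocarboxylate transporter SLC16A4 by 0.94, the granin SCG3 by 0.86, GDPD1 by 0.79, the protocadherin PCDHB14 by 0.77 and the retinol and steroid dehydrogenase HSD17B6 by 0.76. CYP24A1 was lost without cisplatin cultures 1 and 2 and untreated cultures 1 and 3 (up to 0.094), PDGFD without cisplatin culture 2 and untreated cultures 1 and 3 (up to 0.163), and LOC284788 without cisplatin culture 2 (0.0816). ACTR3C was lost under all omissions but that of untreated culture 3 (up to 0.0859) and HSD17B6 without cisplatin cultures 2 and 3 and untreated cultures 1 and 2 (up to 0.0649).

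Of 21 NRF2 targets, which encode antioxidant and detoxifying enzymes, 20 were below 0. Their median was -0.21, beside 0.0054 for all genes, and 13 lay lower in all cisplatin cultures than in the untreated ones (10.1% of all genes). Only AKR1C1, an aldo-keto reductase, was called, at -0.63 (limma adjusted p = 0.0153), where 0.424% of all genes fell. Its second probe set changed by 0.11, and the call was lost without cisplatin culture 3 (0.212), untreated culture 1 (0.0616) or untreated culture 2 (0.0751). In 5 further lists the called gene also belongs to a list above: DDB2 of 19 excision repair genes, POLH of 9 translesion synthesis genes, BIRC5 of 7 genes against apoptosis, FAS of 12 death receptor genes and SESN2 of 22 stress response genes. No member was called in 17 lists, which together hold 273 genes, of which 40 had an unadjusted limma p under 0.05 (14.7%, against 11.9% of all genes). These lists include Fanconi and homologous recombination genes (24 genes, median 0.10), mismatch repair (6, -0.05), checkpoint kinases (19, -0.03), the pro-apoptotic BCL2 family (11, 0.01), interferon-stimulated genes (33, -0.08), cholesterol synthesis (15, -0.09) and ribosomal proteins (20, -0.05).

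Against the mean of the other 17 lines, 380 genes differed in response (2.06%), 201 higher (1.09%) and 179 lower (0.972%) in DOV13B. The test leaves out the spread of responses between lines, so a call does not show DOV13B to be unusual among lines. Besides the mitotic genes (PLK1 by 0.99), ABCA12 (difference 1.46 ± 0.26, limma adjusted p = 7.1e-05), EFCAB10 (1.23), SMOC1 (1.08), EVI2B (1.06), LAMP3 (0.99) and UBE2S (0.90), a partner of UBE2C at the anaphase-promoting complex, were higher. Single lines came near or above DOV13B for some of them. LAMP3 rose by 1.87 in A2008 and 1.44 in C13, against 1.30 in DOV13B, and SMOC1 by 1.30 in HeyA8, against 1.23. ABCA12 rose by 1.88 in A2008 and 1.59 in C13, against 1.94. For EFCAB10, EVI2B, PLK1 and UBE2S no other replicated line had a higher response. Within DOV13B, UBE2S rose by 0.66 (adjusted p = 0.0255) and lost this call without cisplatin cultures 1 and 2 and untreated cultures 1 and 2 (up to 0.162). The interferon-stimulated list had a median of -0.08 in DOV13B and 0.27 over the mean of the others. In response, 5 of its 33 genes were lower in DOV13B, namely IRF9 (-0.66, limma adjusted p = 0.0003), PARP9 (-0.83), IFI6 (-0.52), OAS1 (-0.49) and IFI35 (-0.45). This was not particular to DOV13B: the list median was 0.0025 in DOV13, and 0 of the 33 genes differed in response between DOV13B and DOV13. Of 15 cholesterol synthesis genes, 4 were lower in response: MSMO1, SC5D, HMGCS1 and IDI1, by 0.36 to 0.48. The largest other lower responses were SNORD116-21 (-1.75), ZNF737 (-1.31), CYP24A1 (-1.25), ACTR3C (-1.21), TPD52L1 and SLC16A4 (both -1.19). EVI2B and ACTR3C lost this call without cisplatin culture 2 and untreated cultures 1 and 2, and also without cisplatin culture 1 (EVI2B, adjusted p up to 0.207) or 3 (ACTR3C, up to 0.0661). LINC03030 and ZNF737 lost it without cisplatin cultures 2 and 3 and untreated cultures 1 and 3 (up to 0.0833 and 0.0709). The number of calls was 201 without cisplatin culture 3 and 230, 237 and 224 without cisplatin culture 1, untreated culture 1 and untreated culture 3.

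The difference of the responses of DOV13B and DOV13 carries the error of both, and genes not called are not shown to respond alike. The test called 15 genes (0.0814%), 4 with a higher (0.0217%) and 11 with a lower response (0.0597%) in DOV13B. PLK1 was the 1 mitotic gene among them: in DOV13 it lay at 10.24, 10.01 and 10.004 in cisplatin cultures and at 10.37, 10.17 and 9.98 in untreated cultures. The DOV13 arms overlap, its change was -0.09, and the difference of responses was 0.75 (limma adjusted p = 0.00488). The call was lost without DOV13B cisplatin culture 3 (0.0632), DOV13 cisplatin culture 3 (0.0532) or DOV13 untreated culture 1 (0.0545), and in a fit of these 12 cultures alone (0.108). The mitotic list as a whole had a median of 0.31 in DOV13, where 21 of 35 rose (2.64% of all genes did) and 33 were above 0.

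The stress response genes DDIT3 and ATF3 differed the other way. DDIT3, the transcription factor CHOP, lay at 8.05, 8.12 and 7.76 in cisplatin cultures of DOV13B and at 7.86, 7.76 and 7.80 in its untreated cultures. In DOV13 it lay at 8.73, 8.84 and 8.85 in cisplatin cultures and at 7.44, 7.59 and 7.23 in untreated cultures. The DOV13B arms overlap and the DOV13 arms do not; the changes were 0.17 and 1.39, with a difference of -1.22 (adjusted p = 0.0148). ATF3 changed by 0.18 in DOV13B and 0.96 in DOV13 (difference -0.77, 0.0257). SMOC1 rose by 1.23 in DOV13B and changed by 0.13 in DOV13 (difference 1.10, 0.0387). CER1, an antagonist of BMP and Nodal signals, was at 0.03 in DOV13B and -1.31 in DOV13 (difference 1.34, 0.0417). Each of these 4 calls was lost without DOV13B cisplatin culture 3 or untreated culture 3 and without DOV13 cisplatin culture 3 or untreated culture 1, among 12 omissions; the adjusted p reached 0.101 for DDIT3, 0.162 for ATF3, 0.225 for SMOC1 and 0.19 for CER1. The count of 15 ran from 1, without DOV13 cisplatin culture 3 or untreated culture 1, to 31, without DOV13 untreated culture 3; it was 8, 3 and 2 without DOV13B cisplatin cultures 1 and 3 and untreated culture 3, and 6 without DOV13 untreated culture 2.

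Of the 190 genes that rose in DOV13B, 174 were above 0 in DOV13 with a median of 0.31, where 48.1% of all genes were above 0. In DOV13A, 84 of the 190 were above 0 with a median of -0.11, where 44.7% of all genes were. Of the 78 genes that fell, 61 were below 0 in DOV13 (median -0.16), where 48.1% of all genes were above 0. In DOV13A, 51 of the 78 were below 0 (median -0.13). There 44.7% of all genes were above 0, and the median of all genes was -0.04. DOV13A had 1 culture per arm, so its changes carry no test. The mitotic list had a median of -0.60 in DOV13A, with 0 of 35 above 0, and the p53 list a median of 0.89, with 31 of 35 above 0. PLK1 changed by -1.18, TOP2A by -0.58 and CCNB1 by -0.76 in DOV13A, whereas CDKN1A changed by 1.35 and ABCA12 by 4.10. These values come from batch 5, whose arrays were on another scale.

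**Figure D5:**
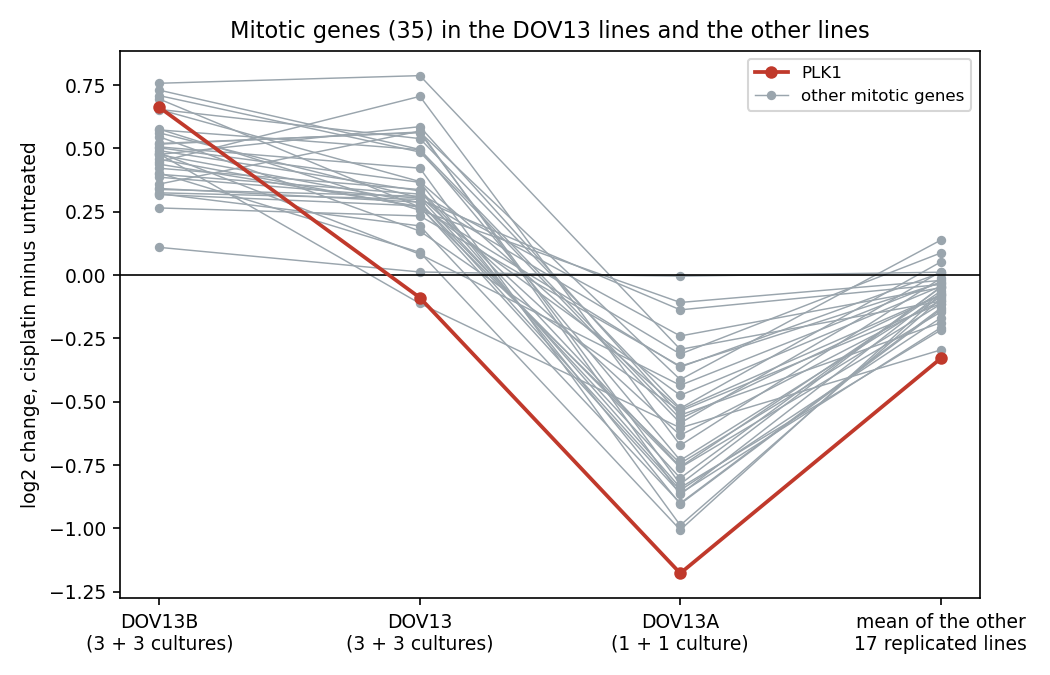
Log2 change (vertical axis, cisplatin minus untreated) of the 35 mitotic genes in DOV13B, DOV13, DOV13A and on average over the other 17 replicated lines (DOV13 included); each line joins the values of 1 gene, with PLK1 in red. All 35 are above 0 in DOV13B and 33 in DOV13, and 0 are above 0 in DOV13A, where each arm is 1 culture.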

How the data were processed

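The 6 DOV13B arrays and those of the other lines were taken from 1 table that the authors deposited, holding 33297 probe sets as log2 values; the submitters' processing notes name RMA, without a version in the sources used here. This method corrects background, equalises the distribution of arrays in a run and summarises probes. The upper quartile of an array was 7.82 to 8.08 in batches 1 to 3 and 5.80 to 6.59 in batches 4 and 5, so changes were taken within a line and batch. Of the probe sets, 19460 had 1 gene symbol in the platform annotation, 1754 had several and 12083 were not listed; the brightest probe set was kept for each of 18417 genes, with symbols updated from a RefSeq table of GRCh38.p14. Arrays have no read depth; their number limits the precision.

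Group means were fitted with limma 3.58.1 in R 4.3.3 over 107 cultures of 18 lines, with 4 repeat arrays averaged with their culture (71 residual degrees of freedom). Contrasts were cisplatin minus untreated in DOV13B, and its difference from DOV13 and from the mean of the other 17 lines, with Benjamini-Hochberg adjustment over all genes at 0.05. Members and the 32 gene lists were chosen with earlier results of these data known. Genes were picked for naming as the 15 largest non-overlapping called changes in each direction and up to 4 called members of each list. The 2 largest members of lists without a call were picked too, but not all of them are printed above. A short set was picked whatever its change. It held the p53 targets MDM2, CDKN1A, FAS and GDF15 and the mitotic genes PLK1 and CCNB1. It also held the markers PAX8, CDH1 and VIM and the platinum genes ATP7B, BRCA1, SLC31A1 and ERCC1. The 8 largest differences in each direction against DOV13 and against the other lines completed the set. Further list members, CIT, NEK2, KIF14, CD82, ETV4, KCNJ2 and RRAD were chosen after their values were seen. Alternatives changed the cultures in the fit, scaling, filter, probe set, minimum change, moderation, weights and replicate block. The fits were tested on simulated data with known changes.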

Additional observations from a re-analysis of the deposited data

Results flagged for a closer look

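The response to cisplatin differed between DOV13B and DOV13 by a test of the difference itself for 15 genes. Those named with a higher response in DOV13B were CER1 (1.34 on the log2 scale), SMOC1 (1.10), PLK1 (0.75) and XXYLT1 (0.60), and those with a lower response were SNORD113-3 (-1.49), DDIT3 (-1.22), LURAP1L (-1.15), FRRS1 (-0.87), ATF3 (-0.77), RMND1 (-0.73), ZNF143 (-0.72) and DEPDC5 (-0.66). Of 12 omissions of 1 culture, these differences lost their call in 10 for RMND1 (adjusted p up to 0.15), 8 each for CER1 (0.19), SMOC1 (0.225) and SNORD113-3 (0.159), 7 for XXYLT1 (0.157), 6 each for ATF3 (0.162) and ZNF143 (0.15), 5 for DEPDC5 (0.114), 4 each for DDIT3 (0.101) and LURAP1L (0.081), and 3 each for FRRS1 (0.116) and PLK1 (0.0632). XXYLT1 rose by 0.35 in DOV13B (lost without cisplatin cultures 2 and 3 and untreated cultures 1 and 3, limma adjusted p up to 0.273) and changed by -0.25 in DOV13, whereas none of the 8 lower ones passed in DOV13B by itself (limma adjusted p of at least 0.0638). DOV13B was measured in batch 3 and DOV13 in batch 2, so line and batch cannot be told apart in levels. Each response was taken within its batch. Line, batch and the dose of each line still cannot be told apart in the difference of responses.

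Against the mean response of the other 17 lines the same kind of test, which leaves out the spread between lines, gave 380 genes. The named ones with a higher response were ABCA12 (1.46), EFCAB10 (1.23), SMOC1 (1.08), EVI2B (1.06), LAMP3 (0.99), PLK1 (0.99), LINC03030 (0.94) and UBE2S (0.90). Those with a lower response were SNORD116-21 (-1.75), ZNF737 (-1.31), CYP24A1 (-1.25), ACTR3C (-1.21), TPD52L1 (-1.19), SLC16A4 (-1.19), LOC284788 (-1.10, lost without cisplatin culture 2, limma adjusted p = 0.0868, or untreated culture 2, 0.0583) and HSD17B6 (-1.09).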

How the results depend on the processing

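The 268 genes called in DOV13B became 110 with only the 6 DOV13B cultures, 130 with only the 5 lines of batch 3, 25 with a minimum change of 1.2-fold and 629 with array weights; leaving out 1 DOV13B culture gave 138 to 211. The 15 genes that differed from DOV13 became 8 with only these 2 lines, 42 without OVCA420 treated culture 3 and OVCAR-10 treated culture 1, 28 after quantile normalization and 0 with the minimum change, and 1 to 31 with 1 culture left out. The 380 genes that differed from the other lines became 239 within batch 3 and 39 with the minimum change, and 201 to 287 with 1 culture left out. The labels do not say whether equal culture numbers mark pairs. The deviations of same-numbered cultures correlated at 0.04, -0.02 and 0.05, and those of different-numbered cultures at -0.083 to 0.043. So few cultures cannot decide the question. With the replicate block, 234 genes were called in DOV13B, 4 against DOV13 and 298 against the other lines. The mitotic count of 30 became 7 with the minimum change, and the p53 count of 13 became 8 within batch 3, 6 with only the DOV13B cultures, 2 with the minimum change and 20 with array weights. Changes near 0 turned sign: with 1 culture left out BRCA1 ran from -0.0036 (without untreated culture 2) to 0.1836, SLC31A1 from -0.0545 (without untreated culture 2) to 0.0947 and ERCC1 from -0.0549 to 0.076 (without untreated culture 2; 0.0225 without cisplatin culture 1), and ERCC1 was 0.002 after quantile normalization. Of 96 called genes examined, 52 stayed called under all 6 omissions. Precision is limited by 3 cultures per arm.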

Other observations

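Gene families were also looked at after their values were seen, so their counts are descriptions, to be read beside the 0.424% of all genes that fell and the 1.03% that rose. Of 16 protocadherin beta genes, which encode adhesion proteins of neurons, 2 fell in DOV13B, PCDHB14 by 0.77 and PCDHB10 by 0.74 (lost without cisplatin culture 2, adjusted p = 0.114, or untreated culture 1, 0.0592), and 4 were above 0. Of 6 APOBEC3 cytidine deaminase genes, APOBEC3H alone rose, by 0.95; the family median was 0.18 in DOV13B, 0.40 in DOV13 and 0.39 over the mean of the other 17 lines. Of 20 SNORD116 small nucleolar RNAs 1 fell, SNORD116-21, and the median was -0.18. Of 13 histone H4 genes, H4C2 fell by 0.70 and H4C6 by 0.67 (lost under all omissions but that of cisplatin culture 2, adjusted p up to 0.286), with a median of -0.30 in DOV13B and -0.38 over the other lines. Neighbouring members of these families share sequence, so their separate values are uncertain.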
